A study of Mus musculus with 4 samples.

Results

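The genes described here encode the subunits of voltage-gated sodium and calcium channels. Members were chosen by name: every probe set that the array's probe table pairs with exactly 1 gene symbol, where that symbol belongs to the sodium channel genes (Scn followed by a number and a or b) or to the calcium channel genes Cacna and Cacnb. This gave 70 probe sets of 27 genes, 11 for sodium and 16 for calcium channels, of 45101 probe sets and 18194 genes in all. Other genes of these families were not analysed as members here. Calcium channel gamma subunit genes, named Cacng, were measured among the partners. Scn4a, Cacna1i and Cacnb3 had no probe set paired with exactly 1 symbol. Each gene was represented by its probe set with the highest mean, and other probe sets are described for some genes only.

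The samples were 4 complete left hippocampi of wild-type mice, numbered 11, 13, 15 and 17 and called biological replicates in the series' design text. The sources used here do not give strain, age, sex or any pooling. All 4 form 1 group, with 1 Affymetrix array each, and the values are log2 intensities made by the authors with RMA. The questions were therefore which channel genes gave signal in this tissue and whether any differed between the samples, and precision is limited by having 4 arrays. Whole tissue was used, so fewer cells of a type and less RNA per cell cannot be told apart.

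Voltage-gated channels open when the membrane depolarises. In neurons, sodium channels start and carry the action potential, and calcium channels turn it into calcium entry that triggers transmitter release, shapes dendritic signals and reaches the nucleus. Each channel has a large pore-forming subunit, called alpha for sodium and alpha1 for calcium channels, with smaller subunits that set its trafficking and gating: beta subunits for sodium channels, and beta and alpha2delta subunits for calcium channels. Other members of the same families serve skeletal muscle, heart, retina or peripheral sensory neurons.

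A gene was counted as above background when its mean exceeded 7.10, the 95th percentile of 41 measured genes that belong to organs such as testis, liver or skin and whose median was 3.64. A lower limit of 6.08, their 90th percentile, was used as an alternative. By these limits 15 of 27 channel genes lay above 7.10, against 35.8% of all genes, and 20 of 27 above 6.08, against 48.8%. The 7 remaining members lay between 3.02 and 3.90, near the median of the background genes. Just outside the upper limit stood Cacna2d2 at 7.08 and Scn3a at 6.97, and just inside it Cacna1g at 7.16. Probe sets bind their targets with unequal affinity, so no gene's level is set against another's, and a dim gene may still be expressed. When a gene was represented by the median of its probe sets and not by the highest, 8 of 27 members lay above the limit, and without sample 11 the count was 14. The share of all genes was not computed for these settings, so neither count can be set against it. At least 2 probe sets were present for 20 members, and the part of that in the shares above the limits was not tested.

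The tissue label was checked against marker genes. Above 7.10 lay 10 of 10 neuronal markers, 6 of 8 markers of pyramidal and granule cells, 8 of 9 of interneurons, 7 of 7 of astrocytes, 6 of 8 of myelinating oligodendrocytes and 3 of 5 of their precursors, 1 of 6 of choroid plexus and 4 of 7 of the vessel wall. For tissues that use other members of the channel families, 1 of 9 skeletal muscle, 0 of 8 cardiac and 0 of 5 sensory neuron markers passed. The muscle gene that passed was Ryr1 at 7.17. The 3' minus 5' difference of Gapdh shows how far signal extends towards the start of a transcript; samples 11 and 13 both had 0.62, sample 15 had 2.64 and sample 17 had 3.79. Without samples 15 and 17, an alternative added after the values had been seen, 17 of 27 channel genes were above the limit recomputed from samples 11 and 13. The genes added were Cacna2d2, at 7.08 with and without those samples, and Scn3a, at 6.97 with and 6.94 without them. It was thus the limit that fell.

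**Figure D1:**
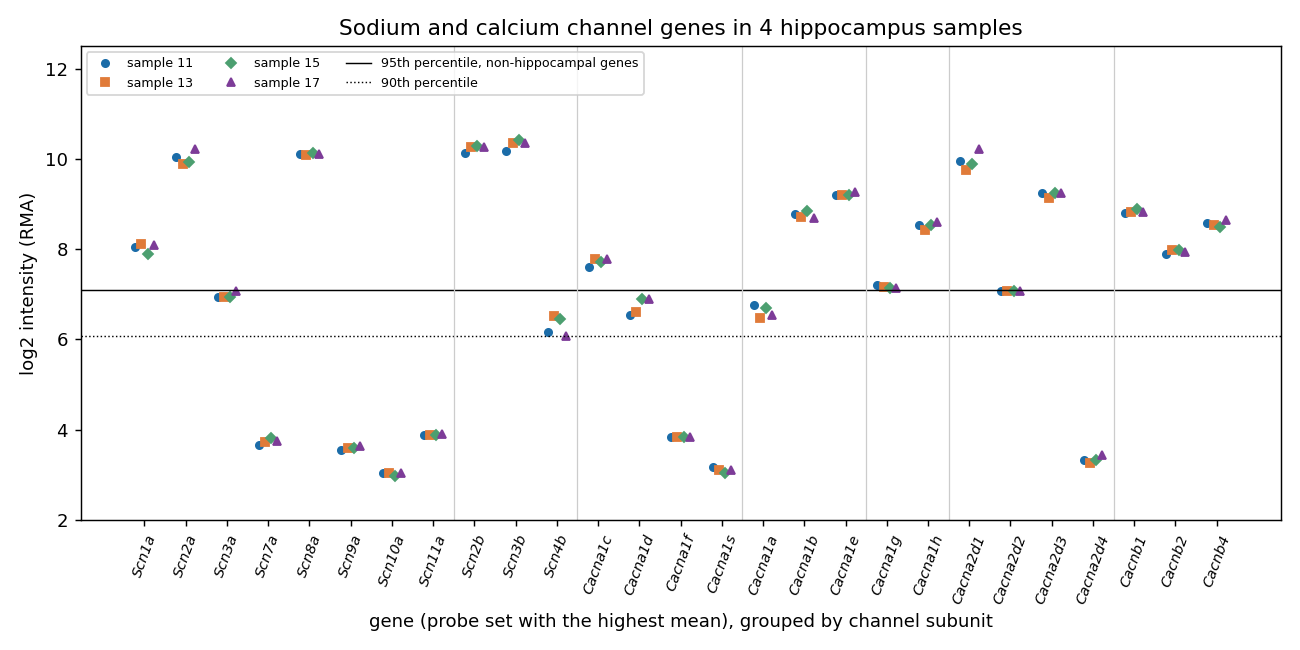
Log2 intensity of the 27 channel genes in samples 11, 13, 15 and 17 (1 symbol per sample), each gene by its probe set with the highest mean and grouped by subunit. The solid line is the limit of 7.10 and the dotted line the lower limit of 6.08; 15 genes have means above the solid line, 5 between the lines and 7 near or under 3.90.

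Of the 8 sodium channel alpha genes measured, Scn1a, Scn2a and Scn8a were above the limit. Scn8a encodes the channel of mature axon initial segments and nodes of Ranvier. Samples 11, 13, 15 and 17 had 10.10, 10.08, 10.12 and 10.10, a mean of 10.10 ± 0.018 (SD, n = 4). The 4 values differed by at most 1.03-fold, and 5.15% of genes above the limit had a smaller SD. Scn2a, the alpha subunit of excitatory neurons and unmyelinated axons, stood at 10.05, 9.89, 9.92 and 10.22 in samples 11, 13, 15 and 17 (10.02 ± 0.15, n = 4). It was highest in sample 17 and lowest in sample 13, a 1.25-fold span, and that order of the ends was kept with quantile normalization and with median centring. Scn1a, which is best known from parvalbumin interneurons, had 8.04, 8.11, 7.89 and 8.08 in the same order of samples, with a mean of 8.03 ± 0.097 (n = 4). Sample 15 was the low one there, by 1.16-fold against sample 13. A second probe set of Scn1a, with a mean of 6.83, was lowest in sample 11 (6.70) and highest in sample 13 (6.95).

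The other alpha genes were dimmer. Scn3a, the alpha subunit that prevails before birth, was between the limits: samples 11, 13 and 15 shared the value 6.94 and sample 17 had 7.08. Scn7a, whose product senses extracellular sodium and opens little with voltage, had a mean of 3.74 ± 0.067 over the 4 samples. The sensory neuron genes Scn9a, Scn10a and Scn11a had means of 3.60 ± 0.039, 3.02 ± 0.030 and 3.90 ± 0.013 (n = 4 each). All 3 probe sets of Scn7a and all 5 of Scn9a lay under the lower limit, while Scn10a and Scn11a have 1 probe set each. Of the markers of sensory neurons, the cells that use these 3 genes, 0 of 5 were above the limit.

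Several of these genes are neighbours, in the RefSeq annotation of mouse assembly GRCm38.p6. Scn3a lies next to Scn2a, and 3 protein-coding genes further on follow Scn1a, Scn9a and Scn7a with no other protein-coding gene between them. That run holds genes above the limit (Scn2a, Scn1a), a gene between the limits (Scn3a) and genes near background (Scn9a, Scn7a). Scn10a and Scn11a are neighbours as well, and both were near background. Scn2b and Scn4b also lie side by side; Scn2b was above the limit and Scn4b between the limits.

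The sequence before the start of transcription differs among these alpha genes, and 4 examples are printed to show it, with every CG dinucleotide in capitals. They are the 250 bases before the first listed start, from RefSeq on GRCm38.p6: Scn8a at chr15:100870395-100870644 (plus strand), Scn2a at chr2:65620519-65620768 (plus strand), Scn1a at chr2:66440838-66441087 (minus strand) and Scn9a at chr2:66634963-66635212 (minus strand).
Scn8a: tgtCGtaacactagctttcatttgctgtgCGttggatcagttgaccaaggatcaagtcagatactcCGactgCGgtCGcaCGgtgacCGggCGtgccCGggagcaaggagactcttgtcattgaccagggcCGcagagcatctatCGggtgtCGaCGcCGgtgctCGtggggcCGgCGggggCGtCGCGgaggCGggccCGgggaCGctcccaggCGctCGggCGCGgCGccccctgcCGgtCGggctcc
Scn2a: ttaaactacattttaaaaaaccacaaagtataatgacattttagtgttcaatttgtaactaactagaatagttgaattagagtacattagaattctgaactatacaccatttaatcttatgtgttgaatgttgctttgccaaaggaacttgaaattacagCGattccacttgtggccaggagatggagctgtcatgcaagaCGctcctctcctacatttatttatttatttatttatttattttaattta
Scn1a: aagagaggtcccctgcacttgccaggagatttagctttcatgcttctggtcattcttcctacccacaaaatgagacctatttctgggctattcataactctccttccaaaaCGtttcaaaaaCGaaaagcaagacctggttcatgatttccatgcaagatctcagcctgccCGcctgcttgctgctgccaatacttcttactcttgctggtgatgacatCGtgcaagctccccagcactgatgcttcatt
Scn9a: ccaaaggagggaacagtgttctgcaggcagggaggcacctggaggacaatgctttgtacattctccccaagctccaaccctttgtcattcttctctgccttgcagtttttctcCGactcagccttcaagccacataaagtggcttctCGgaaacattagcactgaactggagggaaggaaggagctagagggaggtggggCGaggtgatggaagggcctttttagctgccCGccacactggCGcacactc
The stretch before Scn8a holds 30 CG dinucleotides and a GC content of 68%, and that before Scn2a 2 and 29.6%. Scn1a has 4 and Scn9a 5, so neighbours with few CG dinucleotides lay on either side of the detection limit.

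Over the family, 21 of 27 members had an entry in the promoter table. The 12 of them above the limit had a median of 27.5 CG dinucleotides in 250 bases (range 1 to 37) and the 6 near background a median of 4.5 (range 3 to 9). For all genes on the array the medians were 17 above the limit and 6 under the lower limit. The members above the limit split into CG-rich starts, as in Cacna2d1 (36), Cacnb4 (37), Cacna2d3 (30), Cacnb2 (30) and Cacna1b (29), and CG-poor ones, as in Scn2b (1), Scn2a (2), Scn1a (4) and Cacna1e (6). The first listed start is not always the richest: Cacna1c has starts with 2, 48 and 5, and Cacna1d, between the limits, with 2 and 50. Counting any listed start, 8 of 12 members above the limit and 3 of 9 others had at least 20, a number chosen after the values were seen. The same count was not made for all array genes, so it cannot be read as particular to channel genes.

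Known promoter motifs were searched on both strands of the same 250 bases. The GC box GGGCGG, bound by Sp1, was found before 10 of 21 members, against 32.7% of all promoters in the table. Among members above the limit it was 6 of 12, against 63.2% of array genes above the limit, and among members near background 3 of 6, against 37.3% of array genes under the lower limit. The E-box CAGCTG occurred before 6 members (28.6%, against 13%), 3 of 12 above the limit (against 10.3%) and 3 of 6 near background (against 14.4%), and the TATA box TATAAA before 1, Cacna1d (against 12.4%). The cAMP response element TGACGTCA was present before 0 of 21 (against 1.55%), as was the palindromic motif of NRF1 (against 3.74%). A match describes letters, not binding.

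Sodium channel beta subunits are single-pass membrane proteins with an immunoglobulin-like domain, which change gating and act in cell adhesion. Scn2b, joined to the alpha subunit by a disulfide bond, had 10.12, 10.27, 10.29 and 10.27 in samples 11, 13, 15 and 17 (10.24 ± 0.079, n = 4). Scn3b, which binds without such a bond, had 10.17, 10.35, 10.42 and 10.35 in that order (10.32 ± 0.11, n = 4). In both genes sample 11 was the low one, by 1.12-fold and 1.19-fold against sample 15. Scn4b, whose tail can act as an open-channel blocker, was between the limits at 6.17, 6.51, 6.45 and 6.08, with an SD of 0.21 and a 1.35-fold span. Samples 13 and 15 were high and samples 11 and 17 low there.

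The alpha1 subunits of the P/Q, N and R types, which mainly serve transmitter release and dendritic calcium entry, were represented by 3 genes. The R-type gene Cacna1e had the same value of 9.19 in samples 11, 13 and 15 and 9.27 in sample 17 (9.21 ± 0.037, n = 4). The N-type gene Cacna1b stood at 8.79, 8.71, 8.84 and 8.69 (8.76 ± 0.070, n = 4), with samples 13 and 17 a little below samples 11 and 15. Its other probe sets above the limit ordered the samples differently. In samples 11, 13, 15 and 17, 1436602_x_at had 7.41, 7.24, 7.14 and 7.32, and 1460608_at had 7.31, 7.16, 7.20 and 7.34. The P/Q-type gene Cacna1a, the main calcium channel of fast release at many synapses, was between the limits at 6.77, 6.48, 6.69 and 6.55 (6.62 ± 0.13, n = 4). Its next probe set had a mean of 6.54, and the other two 5.55 and 4.06, so none of its 4 probe sets passed the upper limit.

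L-type alpha1 subunits couple depolarisation to gene expression in neurons and to contraction in muscle. Cacna1c, the main L-type gene of brain and heart, had 7.60, 7.79, 7.71 and 7.79 in samples 11, 13, 15 and 17 (7.72 ± 0.086, n = 4). Sample 11 was the lowest, by 1.14-fold against sample 17. A second probe set of Cacna1c with a mean of 6.56 was also lowest in sample 11 (6.34) and highest in sample 17 (6.72). Cacna1d, an L-type channel that opens at less depolarised voltages, was between the limits at 6.54, 6.61, 6.90 and 6.88 (6.73 ± 0.18, n = 4). Samples 15 and 17 were high for this gene, and the span was 1.28-fold. The retinal gene Cacna1f had 3.84 in all 4 samples and the skeletal muscle gene Cacna1s a mean of 3.10 ± 0.049, both near the median of the background genes.

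T-type channels open near the resting potential and support burst firing. Cacna1h had 8.53, 8.43, 8.53 and 8.61 (8.52 ± 0.073, n = 4), highest in sample 17 and lowest in sample 13 by 1.13-fold. Cacna1g lay just above the limit at 7.20, 7.16, 7.14 and 7.14 (7.16 ± 0.032, n = 4), and fell under it when sample 11 was left out, which moves the limit as well.

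The alpha2delta subunits carry calcium channels to the membrane and presynaptic sites. Cacna2d1, a binding site of gabapentin, stood at 9.94, 9.75, 9.88 and 10.21 in samples 11, 13, 15 and 17 (9.95 ± 0.19, n = 4). Sample 17 was the high one and sample 13 the low one, a 1.37-fold span, and 93.9% of genes above the limit had a smaller SD. The ends were the same with quantile normalization and with median centring, at ranges of 0.46 and 0.48 on the log2 scale. The only other probe set of Cacna2d1 above the lower limit, 1449999_a_at, went the other way. It had 6.42, 6.46, 6.42 and 6.31 in samples 11, 13, 15 and 17, lowest in sample 17. Cacna2d3, a subunit with roles in hearing and pain, had 9.24, 9.13, 9.24 and 9.24 (9.21 ± 0.055, n = 4), with sample 13 below the others. Cacna2d2, also a gabapentin target, was at 7.08 in all 4 samples with a range of 0.0013, just under the limit. The retinal Cacna2d4 had a mean of 3.34 ± 0.075, and its 3 probe sets were all under the lower limit.

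Calcium channel beta subunits sit in the cytoplasm, bind the alpha1 subunit and protect it from degradation. All 3 measured were above the limit. Cacnb1 had 8.81, 8.81, 8.89 and 8.81 (8.83 ± 0.039, n = 4), Cacnb2 7.89, 7.98, 7.98 and 7.93 (7.94 ± 0.043) and Cacnb4 8.58, 8.54, 8.50 and 8.65 (8.57 ± 0.067). Each spanned less than Scn1a did, and Cacnb4 was highest in sample 17 and lowest in sample 15 by 1.12-fold.

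Differences between the samples were small for the family's representative probe sets above the limit. The median SD of the 15 members above the limit was 0.070 against 0.081 for the 6510 genes above it, and 10 of 15 members had an SD under that median. In an F test, each probe set's residual variance was set against the prior variance that limma fitted to all probe sets above the limit. After Benjamini-Hochberg adjustment, 0 of 22 channel probe sets above the limit passed the 0.05 threshold. Of these 22, that of Cacna2d1 came nearest, with an unadjusted p of 0.0652 and an adjusted p of 0.893. The limit left out channel probe sets with larger SDs, among them 1427281_at of Scn2a (0.87), 1451894_a_at of Scn8a (0.79) and 1425777_at of Cacnb1 (0.49). With no filter on dim probe sets 0 channel probe sets passed as well. Over the array 0% of 9046 probe sets passed and 277 had an unadjusted p under 0.05, 0 of them from channel genes. With 4 arrays and a prior fitted to the same probe sets, this count does not show that the genes were alike.

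The sample with the lowest value was 11 for 5 of 15 members (48.2% of all genes above the limit), 13 for 5 (18.3%), 15 for 2 (12.9%) and 17 for 1 (13.1%), with 2 ties (7.54%). The 5 lowest in sample 13 were Scn2a, Scn8a, Cacna1h, Cacna2d1 and Cacna2d3. Some markers of other cells stood apart in that sample: the 6 myelin markers above the limit were on average 0.40 over their means. Ttr, the 1 of 6 choroid plexus markers above it, had 9.84 there against 6.54 to 7.36 in the others, so its mean rests largely on sample 13. Of choroid plexus markers under the limit, Kl, Folr1 and Clic6 were also highest in sample 13. Kcne2 was highest in sample 11, and Aqp1 was lowest in sample 13. The part of all these markers in these counts was not tested. The highest value fell in sample 17 for 7 members (38.7%), in sample 15 for 5 (27.8%) and in each of samples 11 and 13 for 1 (9.32% and 18.3%), with 1 tie (5.94%). Among the 7 were near ties: Cacna1c had 7.79 in samples 13 and 17, and Cacna2d3 had 9.24 in samples 11, 15 and 17. Under quantile normalization Cacna1c was highest in sample 13 and Cacna2d3 in sample 11. Both ends stayed in the same samples under quantile normalization and median centring for 6 of 15 members: Scn1a, Scn2a, Scn3b, Cacna1h, Cacna2d1 and Cacnb4. Equal values in at least 2 samples occurred in 8 of 15 members and in 28.3% of genes above the limit, which lowers their SD.

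**Figure D2:**
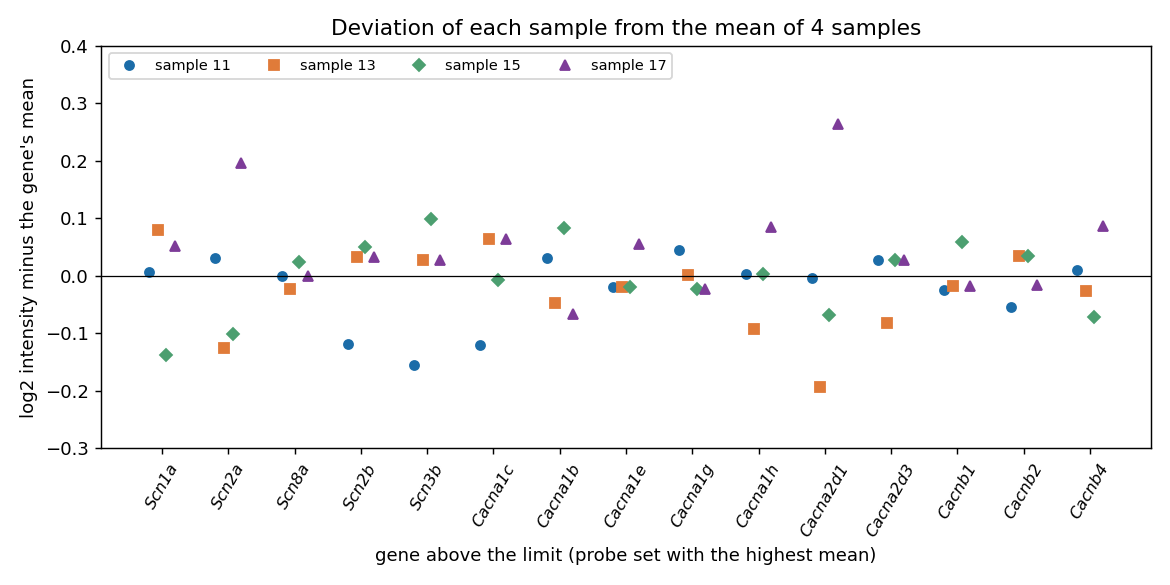
Deviation of each sample from the gene's mean over the 4 samples, on the log2 scale, for the 15 channel genes above the limit. Cacna2d1 has the widest range, 0.46, with sample 17 at the top and sample 13 at the bottom, and Scn8a the narrowest, 0.045.

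**Figure D3:**
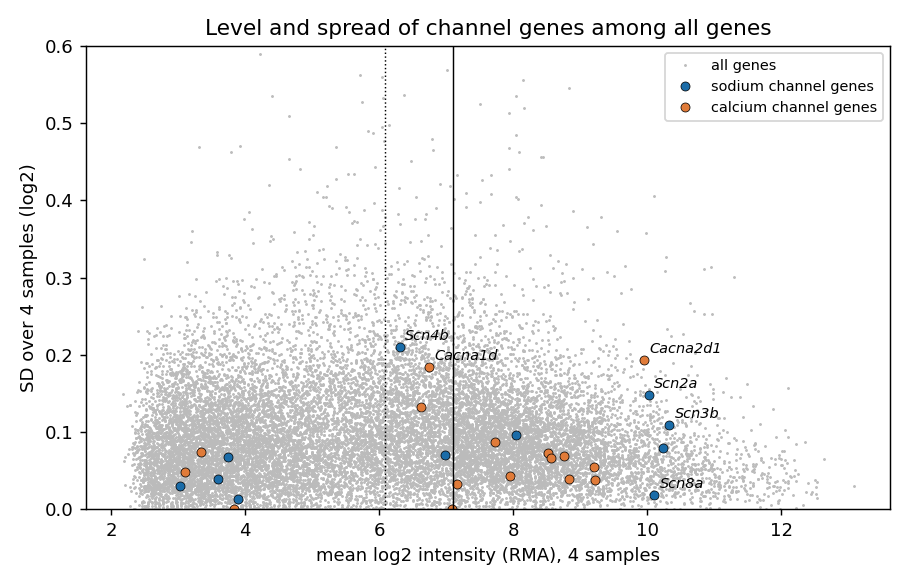
SD over the 4 samples against mean log2 intensity for all genes (grey) and channel genes (blue for sodium, orange for calcium), each by its probe set with the highest mean; lines mark the 2 limits and 15 genes with an SD above 0.6 are not drawn. Cacna2d1 (SD 0.19) and Scn2a (0.15) lie high for their level and Scn8a (0.018) low.

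The probe sets of a gene did not always behave alike. Among 20 members with at least 2 probe sets, the highest and lowest means of the same gene differed by over 2 on the log2 scale in 15. No such count was made over all genes on the array, so it cannot be read as particular to channel genes. Of the 43 other probe sets, 7 were above the limit and 14 above the lower one, also without a count over the array. Those above the limit belonged to Scn2a (1), Scn8a (2), Cacna1b (2) and Cacnb4 (2). Most moved little: the second probe set of Scn2a had 9.39, 9.28, 9.24 and 9.28 in samples 11, 13, 15 and 17, and the other two of Scn8a had SDs of 0.045 and 0.064. For Cacnb4, the probe set 1452089_at was highest in sample 11 at 7.93 and lowest in sample 17 at 7.67, where the representative was highest.

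A few probe sets, named here after their values were seen, dropped in samples 15 and 17 while others of the same gene did not. For Scn2a, the values of 1427281_at in samples 11, 13, 15 and 17 were 7.28, 6.77, 5.61 and 5.52, which puts sample 17 3.41-fold below sample 11. The probe table gives it the same source sequence as the second probe set of Scn2a, which was 1.08-fold lower in sample 17 than in sample 11. For Scn8a, 1451894_a_at went from 7.31 and 6.82 in samples 11 and 13 to 6.13 and 5.51 in samples 15 and 17, 3.48-fold between the ends, while the representative had 10.10 in both of samples 11 and 17. By both probe sets sample 11 was above the upper limit, sample 13 between the limits and sample 17 under the lower one.

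Both beta subunit genes Cacnb1 and Cacnb2 held such a probe set too. Cacnb1 had 6.99, 7.13, 6.72 and 6.03 by 1425777_at, 1.95-fold lower in sample 17 than in sample 11, against 8.81 in each of samples 11 and 17 by its representative. Cacnb2 had 5.89, 5.89, 5.55 and 5.22 by 1452476_at, under the lower limit throughout. Over the array, 1.2% of 13202 probe sets above the lower limit were lower in sample 17 than in sample 11 by more than 0.9, and 1.7% had an SD over 0.4. For channel genes it was 3 of 34 in each case, 1 each of Scn2a, Scn8a and Cacnb1. The cuts of 0.9 and 0.4 were not set before the values were seen, so these counts are no test of an excess. The Gapdh 3' minus 5' difference was highest in the same 2 samples, 15 and 17, and that of beta-actin was 1.10, 1.25, 1.93 and 2.33 in samples 11, 13, 15 and 17; the part of these differences in the drop was not tested.

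**Figure D4:**
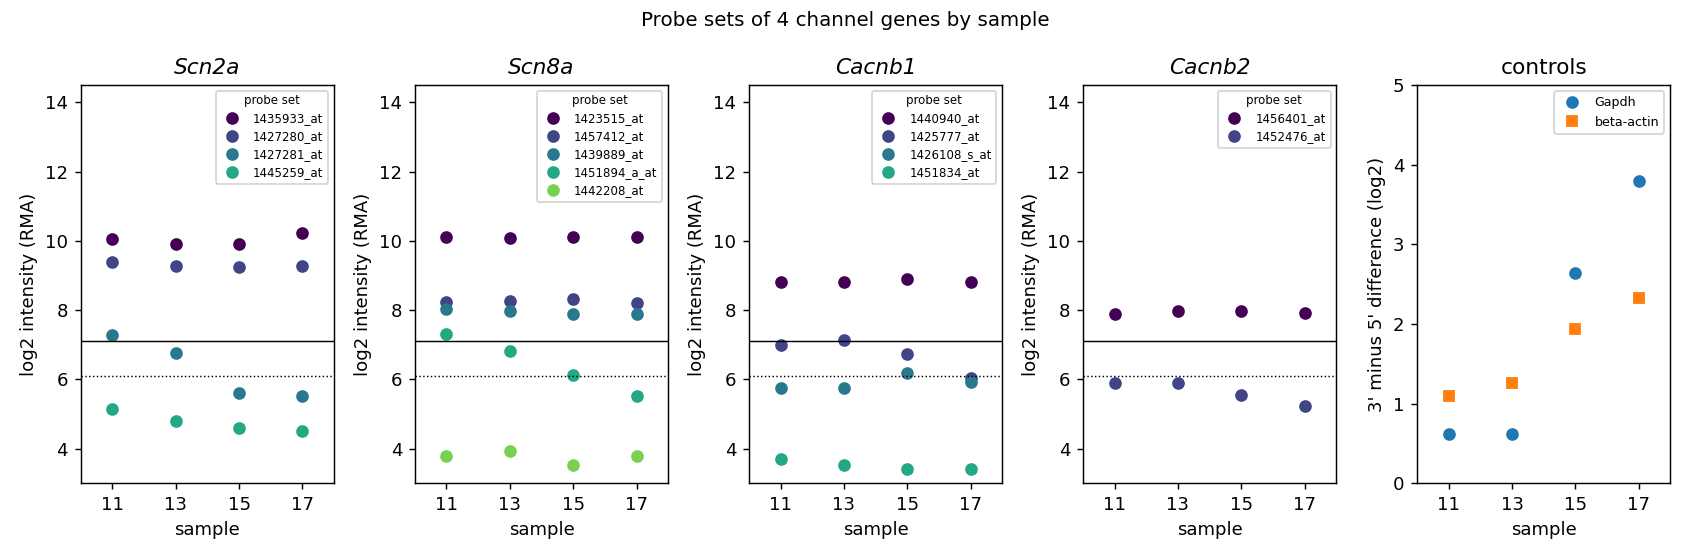
Log2 intensity of every probe set of Scn2a, Scn8a, Cacnb1 and Cacnb2 by sample (lines at 7.10 and 6.08), and at the right the 3' minus 5' difference of Gapdh and beta-actin. The probe set with the highest mean varies by at most 0.32 in each gene, whereas 1427281_at, 1451894_a_at, 1425777_at and 1452476_at are lowest in sample 17, where Gapdh reaches 3.79.

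Partners of the channels were measured alongside. Of 57 measured genes on 3 lists, 39 lay above 7.10, against 35.8% of all genes. Partners of sodium channels were at 16 of 19. The ankyrins Ank2 (10.80 ± 0.011, n = 4) and Ank3 (10.69 ± 0.058), of which Ank3 anchors sodium channels at the axon initial segment, were above it, as were the spectrin Sptbn4 (9.02 ± 0.057) and the intracellular channel modulator Fgf11 (7.39 ± 0.097). The widest spreads above the limit belonged to Cntn2, an adhesion protein of myelinated axons, at 7.55, 8.10, 7.64 and 7.28 in samples 11, 13, 15 and 17, and to Unc80 of the sodium leak channel complex at 9.89, 9.63, 9.77 and 9.99. Cntn2 was highest in sample 13, where the myelin markers above the limit were also highest, with deviations of -0.18, -0.052 and -0.18 in samples 11, 15 and 17; their part in the Cntn2 difference was not tested.

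Partners of calcium channels were above the limit in 15 of 26 cases. Of the gamma subunit genes, which in brain mainly accompany AMPA receptors, Cacng2 had a mean of 7.96 ± 0.073 (n = 4) and Cacng4 of 7.38 ± 0.11. The skeletal muscle gene Cacng1 was near background at 2.85 ± 0.029. Cacng3 stood at 7.83, 7.86, 7.60 and 6.74 in samples 11, 13, 15 and 17, and Cacng7 at 7.91, 7.98, 7.75 and 7.03. Both were lowest in sample 17, which also had the highest Gapdh difference, whose part was not tested.

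Genes of intracellular calcium release and store-operated entry were above the limit in 8 of 12 cases. The ryanodine receptors Ryr2 and Ryr3, which release calcium from the endoplasmic reticulum, had means of 8.65 ± 0.042 and 8.16 ± 0.15 (n = 4), and Ryr1 stood at 7.37, 6.91, 7.04 and 7.38 in samples 11, 13, 15 and 17. Itpr2, an inositol trisphosphate receptor, was under the lower limit at 5.91 ± 0.024. The store-operated channel gene Orai3 had 7.21, 7.63, 7.66 and 7.47, lowest in sample 11.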

How the data were processed

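Total RNA of the 4 samples was prepared with a column kit made for fatty tissue, DNase treated, amplified and biotin-labelled, per the labels' protocols. What the authors deposited are RMA log2 intensities, 1 per probe set and array, per the submitters' processing notes. RMA subtracts background, equalises the arrays' distributions and fits 1 value per probe set, so equal values recur; the sources used here name no version or settings. The probe table gave 34958 probe sets 1 symbol, 932 several and 9211 none. Symbols were updated through Entrez identifiers (34754 matched), which changed 0 member symbols. The members, gene lists and limits were chosen with earlier results of these data known.

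Every measured member may be named, as may the first 4 measured and the 2 most variable genes above the limit of each partner list. Spread was tested with limma 3.58.1 in R 4.3.3 (intercept only, eBayes with trend and robust fit). The F statistic was residual variance over fitted prior variance, with 3 and 2.32 degrees of freedom. P-values were Benjamini-Hochberg adjusted over 9046 probe sets. A trial on simulated data gave the same SD to all probe sets but the planted ones, unlike these data. It does not show what the test can find here. Python 3.11.15 was used for the rest. The design text calls the samples biological replicates and says no more of their source. P-values ask whether a probe set varied more between these samples than the fitted prior variance. They do not measure a spread that all probe sets share. Promoter windows are the 250 bases before each RefSeq start. Alternatives covered the background limit, the probe set per gene, normalization, the filter on dim genes, the prior, the threshold and each sample left out.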

Additional observations from a re-analysis of the deposited data

Results flagged for a closer look

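Some channel genes had 1 sample standing apart, with a gap to the next value that exceeded Dixon's 95% critical share of the whole range. Chance alone does this in about 1 of 20 groups of 4 values that do not repeat, and values repeat here in all 8 genes concerned, which widens the gap relative to the range. Among genes above the limit it happened in 4 of 15 members and in 15% of all 6510 genes. Cacna1e was highest in sample 17 at 9.27, Cacna2d3 lowest in sample 13 at 9.13, Cacnb1 highest in sample 15 at 8.89 and Scn2b lowest in sample 11 at 10.12. Between the limits, Scn3a was highest in sample 17 at 7.08 and Cacna2d2 highest in sample 13 at 7.08, the latter by only 0.0013. Near background, Scn10a was lowest in sample 15 at 2.98 and Scn11a highest in sample 17 at 3.92.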

How the results depend on the processing

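The count of 15 channel genes above background was 20 with the 90th percentile, 13 with the highest background gene as the limit, 8 when each gene took the median of its probe sets, 15 with either other normalization and 14 to 16 with each sample left out. Leaving out samples 15 and 17 together gave 17. The share of all genes was computed only for the 95th and 90th percentiles, so the other counts have no such share beside them. Partner genes above background ran from 26 to 44 around 39, and the median SD from 0.053 to 0.079 around 0.070. The count of 1 member lowest in sample 17 was 2 with the 90th percentile, 3 with quantile normalization, 0 with median centring, 2 over all measured members and 1 to 2 with other samples left out; without sample 17 it has no value. In the test of spread 0 channel probe sets passed under each of the 9 other settings run, and 0 passed over the whole array in each. A test that called no probe set anywhere cannot tell whether channel genes vary less than others. The median over probe sets moved the level of 20 of 27 genes by more than 1 SD. Under each other setting planned the only gene counted as moved was Cacna1f, whose SD is 0 and whose level stayed at 3.84. No paired analysis was possible because the samples form 1 group. Signals not above background set only a bound on a gene's level.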
